A study of Mus musculus with 6 samples.

Results

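The choroid plexus is a fringe of epithelium that hangs in the brain ventricles and makes the cerebrospinal fluid. It lies outside the cortical tissue proper, so its genes serve as a sign of ventricular tissue in a cortical dissection. Its epithelial cells move water and ions into the ventricle, carry vitamins and hormones from blood to brain, and secrete proteins into the fluid. Described here are 8 genes typical of this epithelium, namely Ttr, Folr1, Kl, Clic6, Aqp1, Otx2, Sostdc1 and Prlr. They were taken by symbol from a table of 37620 genes, and each symbol matched 1 row.

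RNA Seq was performed on pre-limbic cortex (PLc) tissue of 9 week old C57Bl/6 mice. The mice received sub-chronic ketamine (30 mg/kg, i.p., daily for 5 days) or saline vehicle on the same schedule, and PLc was dissected 2 days after the last injection. Saline mice 1, 6 and 10 and ketamine mice 3, 5 and 9 each gave a single library, and a mouse is the replicate throughout. The labels name no transgene, and the borders of the dissection are not given in the sources used here.

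The unit is the normalized count, which is the number of reads of a gene divided by a size factor for its library. Between 26273436 and 32643726 reads could be recovered per library, and in these libraries 1 read is worth between 0.906 and 1.10 normalized counts. Tests were run on the 16127 genes whose mean over the 6 mice reached 10 normalized counts. Of the 8 genes, 7 were tested, and Folr1 fell just short with a mean of 9.90. Cortical tissue was present in every library, where each of 10 markers of cortical excitatory neurons had more than 3 reads. Their summed level was lowest in ketamine mouse 3, at 94985 normalized counts, and highest in saline mouse 1, at 198870. All 10 were lower in ketamine under each of the settings tried, limma called 0 of them, and the median of their log2 fold changes was -0.61. The part of this shift in the values that follow was not tested.

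No change shared by the 8 genes was detected with ketamine. Among the 7 tested genes, 5 were higher and 2 lower in ketamine mice, and the median of their log2 fold changes was 0.52. Over all genes tested, 7572 were higher and 8555 lower, with a median of -0.01. In bulk tissue such as this, fewer cells of a type and less RNA per cell cannot be told apart. Two-sided limma tests on log2(normalized count + 1), with Benjamini-Hochberg adjustment, called none of the 7 genes at an adjusted p under 0.05, where 0% of all genes were called. An unadjusted p under 0.05 was found for 1 of the 7 genes, namely Aqp1, against 5.81% of all genes (937 of 16127). On the recovered reads, edgeR called 0 genes, and DESeq2 called 145 genes higher and 37 lower. Aqp1 was the single gene of the 7 that DESeq2 called higher, against 0.901% of the 16087 genes to which it gave an adjusted p. Prlr was given none.

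The sign of 3 of the 7 differences, those of Ttr, Kl and Prlr, turned when a single mouse was left out. Saline mouse 10 held the highest value of 5 of the 8 genes, ketamine mouse 3 that of Clic6 and Prlr, and ketamine mouse 9 that of Aqp1. Without saline mouse 10, all 7 tested genes were higher in ketamine by limma, and the median log2 fold change was 1.40. By DESeq2, 6 were higher, and Ttr was lower at -0.23. Without ketamine mouse 3, 4 were higher and 3 lower, with a median of 0.16, and without saline mouse 1 the median was 0.02. The 8 genes summed to 106, 241 and 3280 normalized counts in saline mice 1, 6 and 10, and to 1306, 260 and 664 in ketamine mice 3, 5 and 9. The summed level of the groups therefore overlapped.

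**Figure D1:**
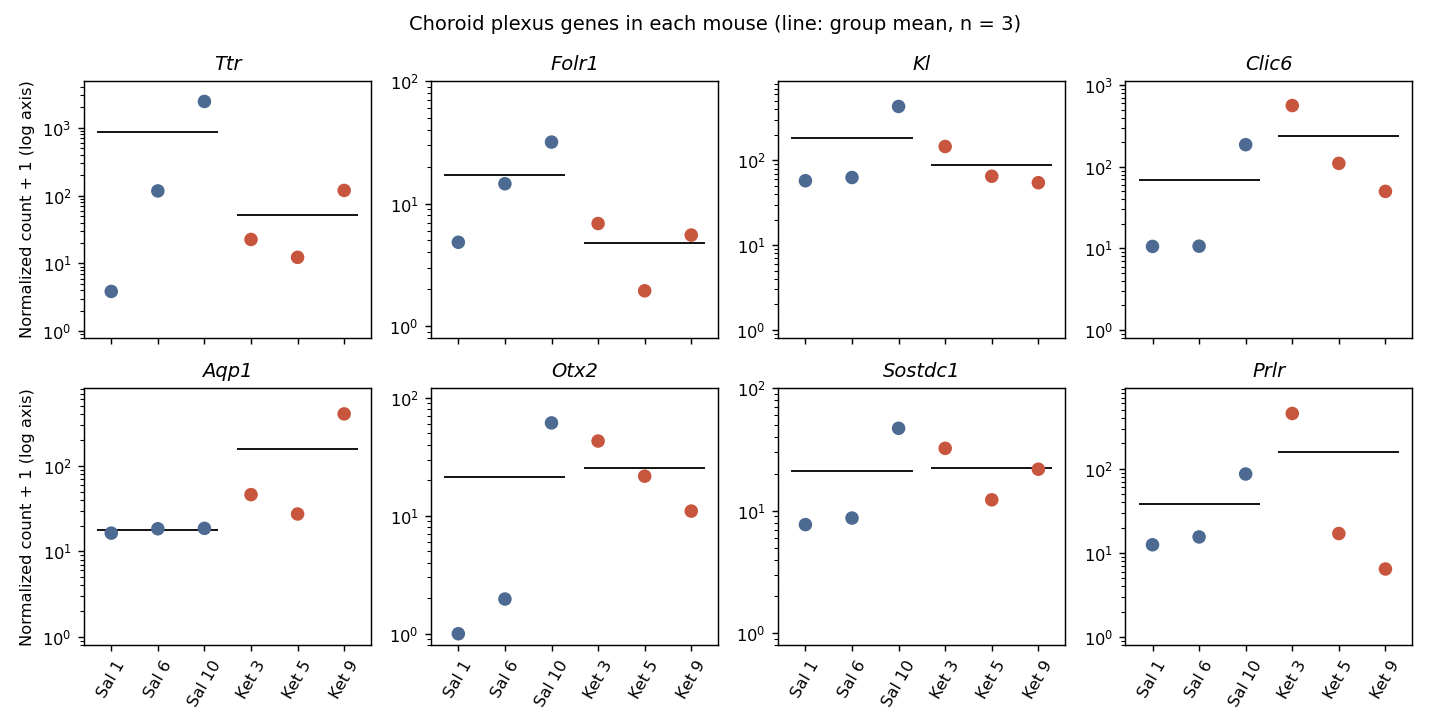
Normalized count + 1 of the 8 genes on log axes, with a point for each mouse (blue for saline, red for ketamine) and a line at the mean of each group (n = 3). Ttr stands at 2421 in saline mouse 10 and at 2.87 in saline mouse 1, and in Aqp1 alone all ketamine mice lie above all saline mice.

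Ttr (ENSMUSG00000061808) encodes transthyretin, the thyroid hormone and retinol carrier that choroid plexus epithelium secretes in large amounts. It lies on chromosome 18 of mm9 from 20823751 to 20832825 on the plus strand, and 11 of its exon bases are shared with Gm16090 on the other strand, which averaged 0.152 normalized counts. The level was 2.87, 116 and 2421 normalized counts in saline mice 1, 6 and 10, against 21.5, 11.3 and 118 in ketamine mice 3, 5 and 9. The lowest and the highest value of the series were thus both in saline mice, and every ketamine mouse fell between them. These levels rest on 3, 120 and 2205 reads with saline and 22, 12 and 130 reads with ketamine, in the same order.

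Between saline mice, Ttr varied more than any other of the 16127 genes tested. Its range was 9.29 on the log2(normalized count + 1) scale, against a median range of 0.36 over all genes. Among ketamine mice its range was 3.27, at rank 175. The difference between the groups was smaller than its standard error by limma, but not by DESeq2. Mean levels were 847 ± 1365 normalized counts in saline and 50.2 ± 58.8 in ketamine (SD, n = 3 each), with a log2 fold change of -1.69 (limma standard error, SE, of 2.14, adjusted p = 0.999). DESeq2 gave -4.08 (SE 1.95, unadjusted p = 0.0364, adjusted p = 0.649), and edgeR -4.06 with an adjusted p of 0.853. The exact permutation test of the 6 mice gave p = 0.7, where 3 mice against 3 cannot give less than 0.1. Without saline mouse 10 the log2 fold change was 0.59, in the other direction.

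Folr1 (ENSMUSG00000001827) encodes the folate receptor that takes folate across choroid plexus epithelium. It lies on chromosome 7 from 109006845 to 109019302 on the minus strand. Its normalized counts were 3.83, 13.5 and 30.8 in saline mice 1, 6 and 10, compared with 5.87, 0.94 and 4.53 in ketamine mice 3, 5 and 9. All but saline mice 6 and 10 had at most 6 reads of the gene. The order of the saline mice was that of Ttr. The groups overlapped (exact permutation test, two-sided, p = 0.3). Without the filter on the mean, where Folr1 entered the fit, limma called 0 of the 8 genes.

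Kl (ENSMUSG00000058488) encodes klotho, a membrane protein and circulating factor that acts as a co-receptor for fibroblast growth factor 23. It lies on chromosome 5 from 151755182 to 151796384 on the plus strand. The level was 56.5, 61.8 and 433 normalized counts in saline mice 1, 6 and 10, against 145, 64.0 and 53.5 in ketamine mice 3, 5 and 9. Saline mouse 10 stood far above the rest, ketamine mouse 3 came next, and the other 4 mice lay close together. The log2 fold change was -0.53 (limma SE 0.799, adjusted p = 0.999; exact permutation p = 0.7). It was 0.42 without saline mouse 10, so its sign also rested on that mouse.

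Otx2 encodes a homeodomain transcription factor needed for choroid plexus development, and Sostdc1 encodes a secreted antagonist of BMP and Wnt signalling. Otx2 (ENSMUSG00000021848) lies on chromosome 14 from 49277354 to 49287319 on the minus strand, and Sostdc1 (ENSMUSG00000036169) on chromosome 12 from 37040756 to 37045039 on the plus strand. Otx2 had 0, 0.97 and 60.4 normalized counts in saline mice 1, 6 and 10, against 42.1, 20.7 and 9.97 in ketamine mice 3, 5 and 9. The 0 in saline mouse 1 allows up to 2.87 normalized counts (3 reads, counting error only). Otx2 was thus present at 11 reads or more in every ketamine mouse but in a single saline mouse.

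The log2 fold change of Otx2 was 2.14 (limma SE 1.48, adjusted p = 0.999; exact permutation p = 0.4). Over the same mice DESeq2 gave 0.24 and edgeR 0.27, both with an adjusted p above 0.99. Without saline mouse 10 it was 3.95 (limma SE 0.737, adjusted p = 0.211). DESeq2, also without that mouse, gave 5.67 with an adjusted p of 0.0312. This DESeq2 fit was added after the data were seen, and it called 501 genes. Leaving out the highest saline value of Otx2 raises the difference by itself. Sostdc1 had 6.71, 7.72 and 46.1 normalized counts in saline mice 1, 6 and 10, against 31.3, 11.3 and 20.9 in ketamine mice 3, 5 and 9. Its log2 fold change was 0.48 (limma SE 0.758, adjusted p = 0.999; exact permutation p = 0.7). For both genes, saline mice 1 and 6 lay below every ketamine mouse and saline mouse 10 above every ketamine mouse.

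Clic6 encodes a chloride intracellular channel protein, and Prlr the prolactin receptor. Clic6 (ENSMUSG00000022949) lies on chromosome 16 from 92485981 to 92541488 on the plus strand. Its normalized counts were 9.58, 9.65 and 186 in saline mice 1, 6 and 10, compared with 562, 109 and 49.0 in ketamine mice 3, 5 and 9. Saline mice 1 and 6 were again lowest, but the highest value was now in ketamine mouse 3, at about 3 times that of saline mouse 10. The log2 fold change was 2.40 (limma SE 1.30, adjusted p = 0.978; exact permutation p = 0.3). It ranged from 1.43 to 3.78 with each mouse left out in turn, lowest without ketamine mouse 3 and highest without saline mouse 10. DESeq2 called Clic6 without saline mouse 10 (adjusted p = 0.0121), and gave an adjusted p of 0.9999 over all 6 mice. The fit without that mouse was added after the data were seen, and it called 501 genes. Leaving out the highest saline value of Clic6 raises the difference by itself.

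Prlr (ENSMUSG00000005268) lies on chromosome 15 from 10106993 to 10303504 on the plus strand, and shares 155 exon bases with Agxt2, which averaged 0.473 normalized counts. Prlr had 11.5, 14.5 and 85.7 normalized counts in saline mice 1, 6 and 10, against 453, 16.0 and 5.44 in ketamine mice 3, 5 and 9. The ketamine group held both extremes of Prlr, as the saline group did of Ttr. Its range among ketamine mice was 6.14 on the log2 scale, at rank 14 of 16127 genes. The log2 fold change was 0.52 (limma SE 1.55, adjusted p = 0.999; exact permutation p = 0.8), and it was -1.29 without ketamine mouse 3. DESeq2 gave 2.09 and no p, and edgeR 2.11 with an adjusted p of 0.9996.

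Aqp1 (ENSMUSG00000004655) encodes the aquaporin-1 water channel of the apical face of choroid plexus epithelium, which red blood cells and blood vessels outside the brain carry too. It lies on chromosome 6 from 55286426 to 55298549 on the plus strand. The level was 15.3, 17.4 and 17.6 normalized counts in saline mice 1, 6 and 10, against 45.0, 26.3 and 403 in ketamine mice 3, 5 and 9. Aqp1 was therefore steady among saline mice, saline mouse 10 included, and all ketamine mice were above all saline mice. It was the single gene of the 7 without overlap in either direction. Of all 16127 genes tested, 918 (5.69%) had their 3 highest values in the ketamine mice, and 751 had their 3 lowest there.

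The mean of Aqp1 was 16.8 ± 1.24 normalized counts in saline and 158 ± 212 in ketamine (SD, n = 3 each). On the log2 scale the difference was 2.17 (limma SE 0.917, with p = 0.0487 before and 0.856 after adjustment), and the exact permutation p was 0.1, the smallest possible. DESeq2 gave 3.25 (standard error 0.867, adjusted p = 0.0206), and edgeR 3.26 with an adjusted p of 0.653. Ketamine mouse 9 carried much of the size. Without it the log2 fold change was 1.001 (limma SE 0.346, adjusted p = 0.433), and DESeq2 no longer called it (1.10, adjusted p = 0.435). Without saline mouse 10 the DESeq2 value was as large as with all mice, 3.29, with a standard error of 1.41 and an adjusted p of 0.255.

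Markers of red blood cells were also highest in ketamine mouse 9. The 5 rows of this list, namely Alas2, which encodes an enzyme of haem synthesis in red cells, and the alpha and beta globin rows, had sums from 1435 to 1904 normalized counts with saline. In ketamine mice 3, 5 and 9 the sum was 949, 1044 and 8996. Reads of near-identical globin copies may be split between rows. In ketamine mice 3 and 5, Aqp1 was above every saline mouse while the red blood cell sum was below every saline mouse. The part of red blood cells in the value of mouse 9 was not tested.

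**Figure D2:**
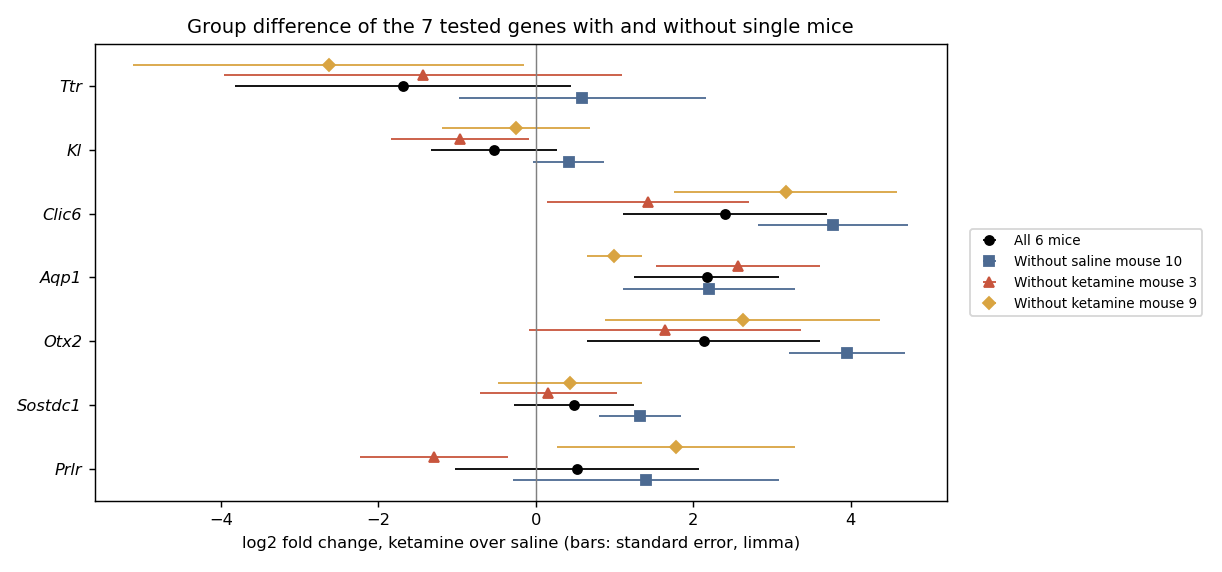
Log2 fold change of the 7 tested genes (ketamine over saline, limma, bars are standard errors) for all 6 mice and with a single mouse left out. Ttr and Kl move from -1.69 and -0.53 to 0.59 and 0.42 without saline mouse 10, Prlr from 0.52 to -1.29 without ketamine mouse 3, and Aqp1 from 2.17 to 1.001 without ketamine mouse 9.

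The genes also stood in different proportions in different mice. Ttr took 73.8% of the reads of the 8 genes in saline mouse 10 (exact 95% interval 72.2% to 75.4%, for counting error only) and 48% in saline mouse 6 (41.7% to 54.4%). It took 1.65% in ketamine mouse 3 (1.04% to 2.49%), 17.7% in ketamine mouse 9 (15.04% to 20.7%), 4.35% in ketamine mouse 5 (2.27% to 7.47%) and 2.70% in saline mouse 1 (0.561% to 7.70%). The high sums of saline mouse 10 and ketamine mouse 3 were therefore made up of different genes. For each 100 normalized counts of Ttr, saline mouse 10 had 7.66 of Clic6 and 3.54 of Prlr, and ketamine mouse 3 had 2609 and 2104.

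Per kilobase of annotated exon, Ttr led in saline mouse 10 with 1986 normalized counts per kilobase, followed by Kl with 84.7 and Clic6 with 47.4. In ketamine mouse 3, Clic6 led with 144 per kilobase, followed by Prlr with 29.3 and Kl with 28.4, and Ttr had 17.7. In ketamine mouse 9, Aqp1 led with 154 per kilobase and Ttr came next with 96.7. Kl led in saline mouse 1 with 11.1 per kilobase, where Ttr had 2.35. The exon length of Prlr, 15.5 kilobases in all, joins every annotated transcript and lowers its value on this scale.

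A wider list of 33 other genes of choroid plexus epithelium was read in the same way. Of these, 21 were tested, with 13 higher and 8 lower in ketamine and a median log2 fold change of 0.20, against -0.01 over all genes. limma called 0 of them, and 3 had an unadjusted p under 0.05, against 5.81% of all genes. The 3 were Htr2c and Cldn1, higher in ketamine, and Enpp2, lower. With each mouse left out the median ranged from -0.02, without saline mouse 1, to 0.33, without saline mouse 10. Across all 33 genes, 20 were highest in saline mouse 10, 6 in ketamine mouse 9 and 3 in ketamine mouse 3. Of the 21 tested, these mice led for 9, 5 and 3, while over all genes tested they held the highest value of 14.1%, 29.4% and 15.1%.

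For genes below the filter, no share over all genes was counted. A read is worth most in saline mouse 10, at 1.10 normalized counts. The 12 genes of the list too low to be tested were the ones most often highest in saline mouse 10, at 11 of 12. Named after their values were seen, they include Krt18, an epithelial keratin, with 0, 1.93 and 26.4 normalized counts in saline mice 1, 6 and 10 and at most 4.70 in a ketamine mouse. Slc4a5, a bicarbonate cotransporter of this epithelium, had 0.96, 0.97 and 22.0, and at most 2.94 in a ketamine mouse. Kcne2, a potassium channel subunit, had 0, 4.83 and 12.1, and was listed at 0 in ketamine mice 3 and 5. Others of the 12, likewise named after their values were seen, were also high in ketamine mouse 3. Slco1a5, an organic anion transporter, had 5.87 there and 6.59 in saline mouse 10, and Tmem72 had 7.83 and 9.88. Wfdc2, a secreted protease inhibitor family member, was the exception, highest in ketamine mouse 9 at 10.9 and at 3.29 in saline mouse 10.

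Named from the list by abundance or by the smallest p were Htr2c, Cldn1, Enpp2 and Cab39l. Htr2c, the serotonin 2C receptor of choroid plexus and of neurons, ranged from 824 to 1043 normalized counts with saline, and ketamine mice 3, 5 and 9 had 3475, 2286 and 1579. Its log2 fold change was 1.37 (limma SE 0.279, limma adjusted p = 0.344, DESeq2 adjusted p = 0.000679). Htr2c was highest in ketamine mouse 3, as were the striatal markers described with the neighbouring regions, and their part in it was not tested. Cldn1, a claudin of tight junctions, stood at 32.6 to 38.4 with saline and at 63.6 to 79.8 with ketamine, which is a log2 fold change of 0.96 (limma adjusted p = 0.401, DESeq2 adjusted p = 0.115). Enpp2, autotaxin, which oligodendrocytes also express, ranged from 8027 to 11352 with saline, highest in saline mouse 10, and from 6039 to 6389 with ketamine. Its log2 fold change was -0.57 (adjusted p = 0.579 by limma, 0.117 by DESeq2). Cab39l, the third most abundant of the list and also highest in saline mouse 10, differed by -0.16 on the log2 scale (adjusted p = 0.999 by limma).

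Ependymal cells, the ciliated cells that line the ventricles, have markers of their own, and 12 of a list of 14 were tested. In ketamine, 10 were higher and 2 lower, with a median log2 fold change of 0.18, and limma called 0. The list summed to 353, 336 and 1096 normalized counts in saline mice 1, 6 and 10, and to 967, 436 and 590 in ketamine mice 3, 5 and 9. Saline mouse 10 and ketamine mouse 3 were thus the highest in each group, as for the sum of the 8 genes. Without saline mouse 10, all 12 were higher in ketamine, with a median of 0.79, while the median was -0.18 without ketamine mouse 3, -0.20 without saline mouse 6 and -0.0043 without saline mouse 1.

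Foxj1, the master regulator of motile cilia, had 48.9, 48.3 and 337 normalized counts in saline mice 1, 6 and 10, against 223, 113 and 174 in ketamine mice 3, 5 and 9. Its log2 fold change was 0.81 (limma SE 0.738, adjusted p = 0.999). Rarres2, which encodes chemerin, had 69.9, 50.2 and 155 with saline and 186, 78.1 and 140 with ketamine in the same order. Rsph4a, a radial spoke gene of cilia, was highest in ketamine mouse 3 at 153, and at 63.7 saline mouse 10 lay below the other saline mice. Dynlrb2, a dynein light chain gene, was highest in saline mouse 10 at 36.2. Ccdc153 and Tmem212, named after their values were seen, had 98.8 and 42.8 in saline mouse 10, 54.8 and 28.4 in ketamine mouse 3, and at most 3.63 in the other 4 mice. Of the 14 genes, 8 were highest in saline mouse 10, 5 in ketamine mouse 3 and 1 in ketamine mouse 9.

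**Figure D3:**
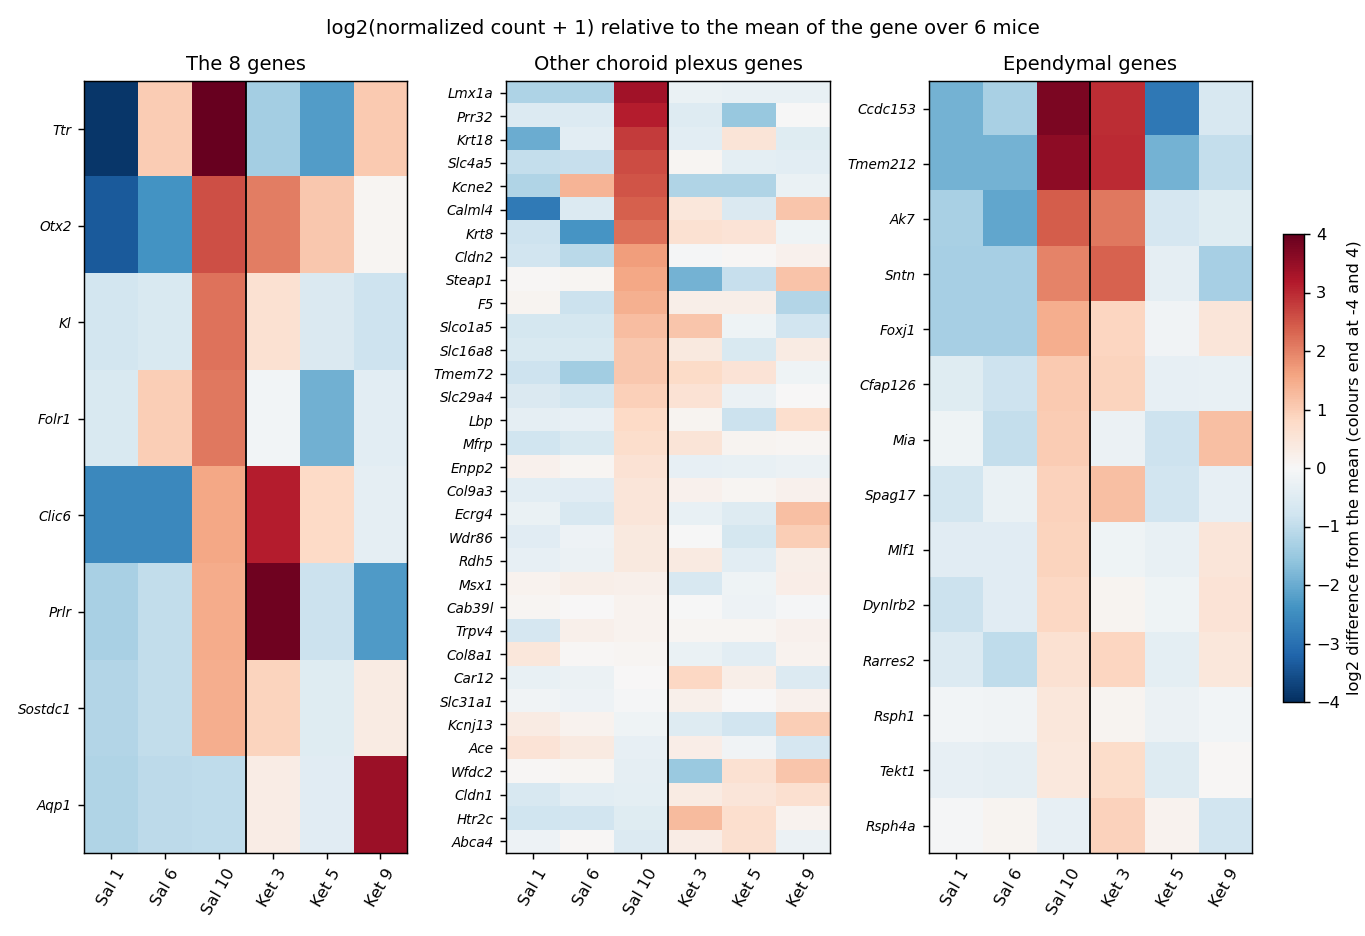
Colour shows log2(normalized count + 1) minus the mean of the gene over the 6 mice, for the 8 genes, 33 other choroid plexus genes and 14 ependymal genes, sorted by saline mouse 10. The 4 genes at the top of the middle panel are deep red in saline mouse 10 alone, while ependymal genes such as Ccdc153 are red in saline mouse 10 and ketamine mouse 3.

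Markers of neighbouring regions and tissues also varied between mice. The 16 striatal markers had sums from 11261 to 14244 normalized counts with saline, and sums of 79014, 41128 and 12679 in ketamine mice 3, 5 and 9. Ketamine mouse 3, which had the most Clic6 and Prlr, had the highest value of all 16, of which Penk, the enkephalin precursor, had 12073 there. Drd2, the dopamine D2 receptor gene, named after its values were seen, had 27.8, 22.2 and 221 in saline mice 1, 6 and 10, compared with 1609, 618 and 25.4 in ketamine mice 3, 5 and 9. The 4 markers of olfactory bulb mitral and tufted cells had sums from 162 to 220 with saline, and of 1385, 1126 and 8121 in ketamine mice 3, 5 and 9. The highest sum was in ketamine mouse 9, which also had the most Aqp1. All 15 tested striatal markers and all 4 of the olfactory bulb were higher in ketamine by limma, which called 0 of them. In 5 of the 15 and in all 4, every ketamine mouse was above every saline mouse, against 5.69% of all genes tested. DESeq2 called 5 of the 15 and 3 of the 4 higher, against 0.901% of the genes to which it gave an adjusted p. The part of such tissue in the values of Clic6, Prlr and Aqp1 was not tested.

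Fibroblasts of the meninges and of the choroid plexus stroma had 14 markers, all tested, among them Igf2, Col1a2 and Mgp. All 14 were highest in ketamine mouse 9, the mouse that led for 29.4% of all genes tested, and their sum was 5820, 5013 and 3696 normalized counts in saline mice 1, 6 and 10, against 5878, 4411 and 10303 in ketamine mice 3, 5 and 9. Saline mouse 10, with the most Ttr, had the lowest sum of these markers. limma called 0 of the 14, and their median log2 fold change was 0.45, or 0.06 without ketamine mouse 9.

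**Figure D4:**
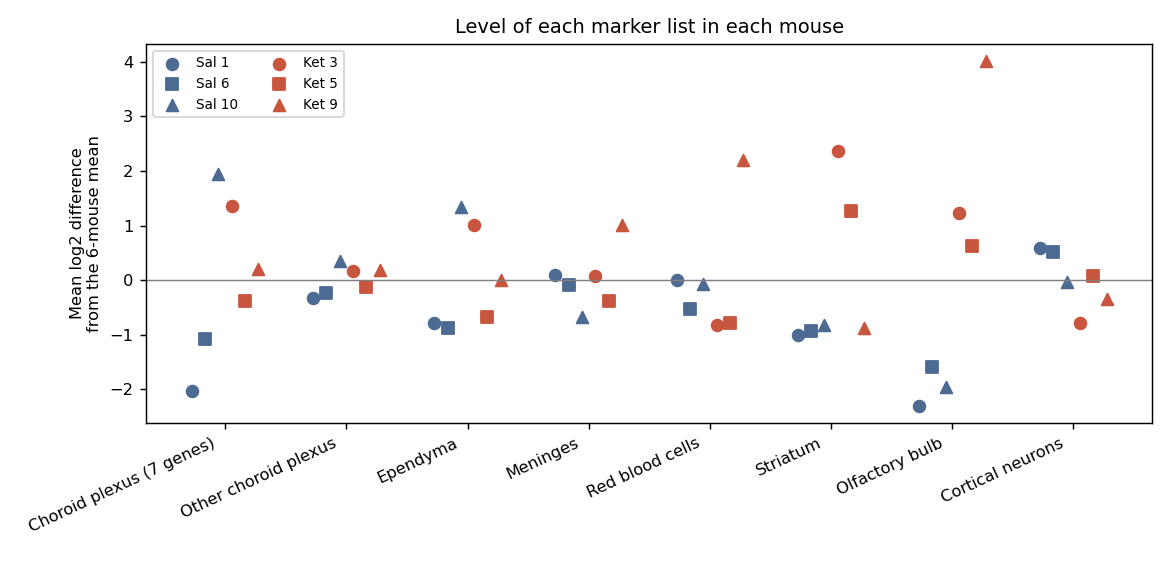
Mean log2 difference from the 6-mouse mean over the tested genes of each marker list, with a symbol for each mouse (blue for saline, red for ketamine). Saline mouse 10 and ketamine mouse 3 lead for the choroid plexus genes (1.94 and 1.36) and for the ependyma (1.34 and 1.009), ketamine mouse 3 for the striatum (2.37), and ketamine mouse 9 for red blood cells (2.20) and the olfactory bulb (4.01).

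Among tested genes outside the 8, those with log2 levels most like those of Ttr over the 6 mice were not those of choroid plexus. Folr1 and the 12 genes of the wider list below the filter were not ranked. By Pearson's r, the 10 closest were Cxcr7, Cyp4f13, mt-Tm, Ehd2, D730003I15Rik, 4930563E22Rik, Sat2, 4921536K21Rik, P2ry14 and Taf1b, with r from 0.949 to 0.971. The measure does not depend on the size of the difference between mice. Cxcr7 ranged only from 266 to 380 normalized counts, 1.43-fold, and mt-Tm, the widest of the 10, varied 2.93-fold. Among the other tested genes of the 8, r with Ttr was 0.70 for Kl, 0.67 for Sostdc1, 0.50 for Otx2, 0.25 for Clic6, 0.17 for Prlr and 0.08 for Aqp1. These are descriptions over the same 6 libraries, in which saline mouse 10, with by far the most Ttr, has a large weight. The 10 closest were picked as the highest r of the genes tested. Whether their r exceeds that of genes without a link to Ttr was not tested.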

How the data were processed

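Per the paper's methods and the submitters' processing notes, the authors aligned 100 base paired-end reads to mm9 with TopHat2 2.0.11, obtained gene counts with HTSeq and used DESeq2. The authors deposited a signal per gene, in which each count is scaled by the size factor of its library and given to 2 decimals. The annotation and strand setting are not given in the sources used here. Whole reads could be recovered from at least 99.99% of the values of each library, within a tolerance of 0.0051 normalized counts. All 6 columns were matched to samples by mouse number.

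Log2(normalized count + 1) was compared with limma 3.58.1 (trend) in R 4.3.3, in genes with a mean of at least 10, with Benjamini-Hochberg adjustment at 0.05. edgeR 4.0.16 and DESeq2 1.42.0 were run on recovered reads, other pseudocounts, filters and scalings were tried, and each mouse was left out in turn. Scripts were tested on simulated data. Coordinates and exon lengths came from GENCODE M1 (mm9). The 8 genes and the marker lists were chosen with earlier results of these data known, so lists are given by counts and medians. List genes were matched by symbol, then by RefSeq synonym. Besides the 8 genes, the rule named from each list the 3 most abundant genes and the 3 with the smallest p, and the 10 genes most like Ttr. The labels give each library a number of its own, which is read here as a separate animal.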

Additional observations from a re-analysis of the deposited data

How the results depend on the processing

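The number of genes called was 0 by limma under every pseudocount, filter and scaling tried and by edgeR, 182 by DESeq2, and 0 to 1 with each mouse left out. Of the 7 tested genes, DESeq2 called 1, Aqp1 (log2 fold change 3.25), and limma and edgeR called 0. DESeq2 without saline mouse 10, added after seeing the data, called 501 genes and 2 of the 7, Clic6 (4.66) and Otx2 (5.67), with Kl reversed at 0.58, Ttr still lower at -0.23 and the median of the 7 at 3.29. Without ketamine mouse 9 it called 434 genes and 0 of the 7. Over all mice DESeq2 gave a lower Ttr (-4.08), a smaller Otx2 (0.24) and a higher Prlr (2.09) than limma. Here limma compared means of log2 values. The DESeq2 values followed the group means of the normalized counts. In saline and ketamine these were 847 and 50.2 for Ttr, 20.5 and 24.3 for Otx2, and 37.2 and 158 for Prlr. With each mouse left out, the limma log2 fold change ranged from -4.05 to 0.59 for Ttr, -1.04 to 0.42 for Kl, -1.29 to 1.78 for Prlr, 0.02 to 1.33 for Sostdc1, 0.98 to 3.95 for Otx2, 1.43 to 3.78 for Clic6 and 1.001 to 2.94 for Aqp1. It reversed for Ttr and Kl without saline mouse 10 and for Prlr without ketamine mouse 3. The median of the 7 ranged from 0.02 to 1.40. With a filter of 100 normalized counts, only 3 of the 7 genes were left and their median was -0.53. Of 115 alternative values of single genes, 108 kept their direction and were not called, 4 reversed and 3 were called, all by DESeq2. The 108 include Prlr by DESeq2, which had no adjusted p. Many of the 115 are refits of the same values, and limma and edgeR called almost no gene. The tally is therefore no measure of robustness. Folr1, Otx2 and Sostdc1 rest on few reads. Over all mice the limma SE of the 7 tested genes ran from 0.758 for Sostdc1 to 2.14 for Ttr. Small differences were therefore not detectable in any of the 7. No paired analysis was possible because the groups share no mouse numbers.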
